A study of Mus musculus with 36 samples.

Results

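The transcripts of 10 genes used as markers of nervous tissue were followed in mouse embryonic fibroblasts (MEF cells), out of 54842 genes in the count table. The genes were taken by symbol: Snap25, Syt1 and Syp of the synaptic vesicle cycle, Stmn2, Nefl, Nefm, Gap43 and Tubb3 of the neuronal cytoskeleton and the growing axon, and Mbp and Gfap of glia. RNA had been sequenced in 36 libraries, 12 groups of 3 replicates. All cells carried a PiggyBac insert that expressed dCas9 (a Cas9 that binds DNA without cutting it) on doxycycline and, at all times, a guide RNA to the major satellite repeat (MSR) of pericentric heterochromatin, and were kept as mixed cultures under hygromycin, not as clones. In the MSR-dCas9-Control line dCas9 had no effector, and in the MSR-dCas9-Activator line it was fused to the transcriptional activator VPR. Both lines were sampled before induction, at the end of an induction with 10 ng/ml doxycycline, and then 3, 6, 12 and 24 h into culture without the drug. Induction lasted 24 h for MSR-dCas9-Control and 6 h for MSR-dCas9-Activator cells, so the effector and the length of exposure cannot be told apart. The study describes the replicates as biological.

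Neurons release transmitter when synaptic vesicles fuse with the plasma membrane. Synaptotagmin 1 (Syt1) is the calcium sensor of that step, Snap25 is a SNARE protein of the plasma membrane that pulls the membranes together, and synaptophysin (Syp) is an abundant protein of the vesicle membrane. Neurofilament light and medium chains (Nefl, Nefm) are intermediate filaments of the axon, stathmin 2 (Stmn2) binds tubulin in growing axons, Gap43 is a membrane-bound protein of growth cones, and Tubb3 is the β-tubulin used as a label of young neurons. Myelin basic protein (Mbp) compacts the myelin sheath of oligodendrocytes and Schwann cells, and its locus also makes golli transcripts in cells without myelin. Gfap is the intermediate filament of astrocytes. Outside the nervous system many neuronal genes are held silent by REST, a repressor that binds the RE1 element and recruits CoREST proteins, histone deacetylases and histone methyltransferases.

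Gene counts per library ranged from 27376846 to 57371803 (median 42865961). The targeted repeat, GSAT_MM, took from 0.00178 to 0.00396% of all counts in the 18 MSR-dCas9-Control libraries. In replicates 1 to 3 of uninduced MSR-dCas9-Activator cells it took 0.00804, 0.00430 and 0.00729%, above every MSR-dCas9-Control library. In induced MSR-dCas9-Activator cells it took 0.281, 0.189 and 1.79% in replicates 1 to 3. The labelled cell type was present: 18 of 18 fibroblast markers had counts in uninduced cells of both lines, with a summed level of 33921 to 38152 CPM (counts scaled to an equal library size) in MSR-dCas9-Control and 36728 to 37948 in MSR-dCas9-Activator libraries. Over all MSR-dCas9-Control libraries Col1a1, Fn1 and Col1a2 were highest (10375, 7038 and 4832 CPM). Lum, Postn and Thy1 were near 0 (0.488, 0.386 and 0.0170 CPM). Markers of neurons summed to 2.08 to 3.00 CPM in uninduced MSR-dCas9-Control cells, where 5 of 12 had a count and Rbfox3, Map2, Slc17a6, Gad1, Slc32a1, Th and Chat were at 0. In bulk RNA a change in the number of cells that express a gene and a change in RNA per cell cannot be told apart.

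RefSeq gives a window of 300 bases around the start site (250 before and 50 after, GRCm38.p6) for 4 of the 10 genes: Syt1, Gfap, Tubb3 and Syp. Those of Syt1 and Gfap, which rose, and of Tubb3, which fell, are shown to let their start regions be compared. Each is read 5′ to 3′ on the strand of the gene, from chr10:109010926-109011225 (minus), chr11:102897151-102897450 (minus) and chr8:123411303-123411602 (plus). Capitals mark matches on either strand to the TATA box TATAAA, to the CCAAT box, to the left side (CAGCACC) and the right side (GGACAG) of the RE1 element, to the GC box GGGCGG, or to the STAT-type palindrome TTCNNNGAA.
Syt1: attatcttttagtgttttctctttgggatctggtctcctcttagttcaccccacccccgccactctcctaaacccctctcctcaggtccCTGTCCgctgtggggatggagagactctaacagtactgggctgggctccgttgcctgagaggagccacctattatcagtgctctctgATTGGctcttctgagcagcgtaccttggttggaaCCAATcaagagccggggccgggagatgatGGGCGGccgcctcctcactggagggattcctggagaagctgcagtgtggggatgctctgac
Gfap: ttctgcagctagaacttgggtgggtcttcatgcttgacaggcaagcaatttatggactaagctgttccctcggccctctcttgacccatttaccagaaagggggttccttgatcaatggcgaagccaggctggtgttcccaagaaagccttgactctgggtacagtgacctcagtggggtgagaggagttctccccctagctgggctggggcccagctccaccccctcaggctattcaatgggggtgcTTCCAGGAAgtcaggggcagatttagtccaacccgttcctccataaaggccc
Tubb3: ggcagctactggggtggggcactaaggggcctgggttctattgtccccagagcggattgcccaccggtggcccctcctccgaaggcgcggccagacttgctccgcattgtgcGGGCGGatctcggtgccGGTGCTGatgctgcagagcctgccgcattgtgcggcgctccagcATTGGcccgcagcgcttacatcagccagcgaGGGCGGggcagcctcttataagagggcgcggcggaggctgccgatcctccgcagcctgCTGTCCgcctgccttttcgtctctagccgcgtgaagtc

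The Tubb3 window held 5 matches: the CCAAT box, both RE1 sides and the GC box at 2 places. The RE1 sides did not adjoin: the left began at -121 and the right at 12 from the start site. The Tubb3 window was rich in G and C (67.3%, with 26 CpG, against a median of 52.7% and 7 over 32851 windows). The Syt1 window held 4 matches, the CCAAT box at 2 places, the right RE1 side and the GC box, with 8 CpG and 56.7% GC. The other RefSeq window of Syt1 held none. The Gfap window held only the STAT-type palindrome, spanning its start site, with 3 CpG, and that of Syp the GC box at 2 places. Of all windows 7.14% held the left RE1 side, 22.2% the right side, 37.4% the CCAAT box, 35.7% the GC box, 13.6% the TATA box and 8.30% the STAT-type palindrome. A match describes only the letters of a window.

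The 10 genes fell into 3 tiers of expression. Tubb3 and Mbp were expressed in every library: per length, uninduced MSR-dCas9-Control cells held 14.5 ± 2.75 RPKM of Tubb3 and 4.70 ± 0.171 of Mbp (SD, n = 3), where RPKM is CPM divided by the kilobases of merged exons. Syp, Gfap and Syt1 were near the limit of detection, with means of 0.0830, 0.0387 and 0.0124 RPKM over the 18 MSR-dCas9-Control libraries. Snap25, Stmn2, Nefl, Nefm and Gap43 held 1, 2, 0, 0 and 14 counts in all 18 MSR-dCas9-Control libraries together. The 5 genes of the first and second tiers passed the filter on low counts, which kept 28536 genes. Syt1 passed it only through the MSR-dCas9-Activator libraries: on the 18 MSR-dCas9-Control libraries alone, which kept 22061 genes, Syt1 was dropped while Gfap, Syp, Tubb3 and Mbp stayed.

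On GRCm38, Syt1 (ENSMUSG00000035864) lies at chr10:108497650-109010982 on the minus strand, Gfap (ENSMUSG00000020932) at chr11:102887336-102900912 on the minus strand, Tubb3 (ENSMUSG00000062380) at chr8:123411424-123422015 on the plus strand, Mbp (ENSMUSG00000041607) at chr18:82475146-82585637 on the plus strand and Syp (ENSMUSG00000031144) at chrX:7638471-7653256 on the plus strand. Snap25 (ENSMUSG00000027273) lies at chr2:136713453-136782428 and Stmn2 at chr3:8509360-8561606, both on the plus strand, and Gap43 at chr16:42248442-42340651 on the minus strand. Nefl (chr14:68083863-68089095, plus strand) and Nefm (chr14:68082590-68124846, minus strand) overlap within exons on opposite strands, as do Syp and the antisense gene Gm14703. The strand setting of the counting was not given, so counts of these overlapping genes are uncertain. Tubb3 lies within the span of Gm20388, a read-through gene on the same strand.

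Before induction none of the 5 tested genes was called different between the lines by edgeR (quasi-likelihood test, Benjamini-Hochberg adjusted p under 0.05 and a difference beyond 1 on the log2 scale), where 0.75% of all tested genes were called. At an unadjusted p under 0.05, 1 of the 5 and 2964 of all genes passed, and DESeq2 called 1 of the 5. That gene was Syt1: uninduced MSR-dCas9-Activator libraries held 20, 17 and 16 counts and uninduced MSR-dCas9-Control libraries 1, 4 and 5. The groups did not overlap, at 0.410 ± 0.0115 against 0.0861 ± 0.0598 CPM (SD, n = 3). The difference was 2.40 ± 0.72 (SE) on the log2 scale, with an adjusted p of 0.113 in edgeR. Tubb3 also lay higher without overlap, and Mbp and Gfap lower, in the uninduced MSR-dCas9-Activator libraries, by 0.34, -0.16 and -0.97 on the log2 scale, with adjusted p-values of 0.712, 0.938 and 0.749. With 3 against 3 libraries a lack of overlap has a probability of 0.1 where groups do not differ. Its share over all genes was not counted.

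Doxycycline and dCas9 without an effector gave no call. Comparing induced with uninduced MSR-dCas9-Control cells, edgeR called 0 of 5 tested genes, with 0 of 5 at an unadjusted p under 0.05, and DESeq2 also called 0. Of all genes 0.112% were called and 2064 had an unadjusted p under 0.05. The groups did not overlap for Mbp, at 33.3 ± 1.06 against 39.8 ± 1.45 CPM (SD, n = 3), or for Gfap, at 0.126 ± 0.0485 against 0.208 ± 0.0326. The share of all genes without overlap was not counted here either.

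Syt1, the calcium sensor of transmitter release, was higher in MSR-dCas9-Activator than in MSR-dCas9-Control cells from induction on. Against 20, 17 and 16 counts before induction, replicates 1 to 3 of the MSR-dCas9-Activator line held 242, 77 and 321 counts on induction and 481, 313 and 203 at 3 h. The 6 h libraries held 218, 222 and 129 counts, the 12 h libraries 146, 190 and 105, and the 24 h libraries 100, 41 and 49. The 18 MSR-dCas9-Control libraries held between 0 and 11 counts, so that none of them overlapped an induced or later MSR-dCas9-Activator library. On the scale of CPM the mean was 4.43 ± 2.29 on induction and peaked at 7.14 ± 2.14 in the 3 h libraries (SD, n = 3). It was 4.57 ± 0.815 in those of 6 h, 3.76 ± 0.343 after 12 h and 1.52 ± 0.799 after 24 h. The 3 h libraries lay above the 6 h libraries, while the 6 h, induced and 12 h libraries overlapped. The 24 h libraries lay below the 12 h libraries and above the uninduced ones. Per length Syt1 reached 0.856 ± 0.256 RPKM at 3 h, when Mbp stood at 0.925 ± 0.399 in the same libraries, a gap smaller than the spread.

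The difference in Syt1 between the lines was 5.45 ± 0.57 (SE) on the log2 scale in induced cells (edgeR adjusted p = 6.33e-09) and 6.12 ± 0.56 at 3 h (adjusted p = 2.23e-10). It was 5.31 ± 0.56 at 6 h (adjusted p = 2.55e-09) and 6.82 ± 0.67 at 12 h (adjusted p = 5.55e-10), where the MSR-dCas9-Control mean was lowest (0.0316 ± 0.0167 CPM). At 24 h it was 3.18 ± 0.55 (adjusted p = 1.57e-05). Within MSR-dCas9-Activator cells Syt1 rose by 3.41 ± 0.45 on induction (adjusted p = 4.38e-07) and fell by 1.57 ± 0.39 from the induced state to 24 h (adjusted p = 0.00152), although the libraries of these last groups overlapped. With libraries left out the value ran from 4.80 (without the MSR-dCas9-Control library of replicate 1) to 6.39 (without replicate 2) on induction, from 4.74 (without the MSR-dCas9-Control library of replicate 3) to 6.92 (without replicate 1) after 6 h, and from 2.26 (without replicate 1) to 3.74 after 24 h. Since Syt1 passed the filter only through the MSR-dCas9-Activator libraries, where it is high, its calls between the lines were in part set by the filter. Of all tested genes 94.2% had a lower difference than Syt1 on induction and 83.8% at 24 h, while 5.81% and 16.2% had a higher one.

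Gfap, the astrocyte filament, was also higher from induction on. MSR-dCas9-Activator libraries held 6, 5 and 2 counts before induction, 226, 39 and 229 on induction, and 332, 125 and 160 at 3 h. The 6 h libraries held 348, 160 and 249 counts, the 12 h libraries 291, 156 and 173, and the 24 h libraries 161, 47 and 89. MSR-dCas9-Control libraries held between 0 and 21 counts, below every MSR-dCas9-Activator library from induction on. Replicate 2 was the lowest of the 3 MSR-dCas9-Activator libraries at all 5 of these times. The highest mean was at 6 h, 6.19 ± 2.19 CPM, followed by 5.46 ± 1.86 at 12 h, 4.46 ± 1.97 at 3 h, 3.37 ± 2.04 on induction and 2.39 ± 1.44 at 24 h (SD, n = 3). Neighbours in this order overlapped, so the time of the peak is not resolved beyond the spread of the replicates.

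Between the lines, Gfap was higher in MSR-dCas9-Activator cells by 4.56 ± 0.53 (SE) on the log2 scale on induction (edgeR adjusted p = 3.53e-08), 5.27 ± 0.54 at 3 h (adjusted p = 1.55e-09), 5.80 ± 0.54 at 6 h (adjusted p = 2.42e-10), 4.27 ± 0.46 at 12 h (adjusted p = 3.64e-09) and 3.55 ± 0.50 at 24 h (adjusted p = 7.7e-07). With libraries left out the value reached 5.28 on induction, 6.80 after 6 h and 5.41 after 12 h, each without replicate 2, and ran from 4.66 to 6.38 after 3 h, without the MSR-dCas9-Control library of replicate 3 or 1. Within MSR-dCas9-Activator cells it rose by 4.97 ± 0.54 on induction (adjusted p = 1.71e-08). From the induced state to 24 h its change, -0.51 on the log2 scale, did not pass the test (adjusted p = 0.252). Of all tested genes 91.1% had a lower difference than Gfap at 6 h and 85.3% at 24 h.

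**Figure D1:**
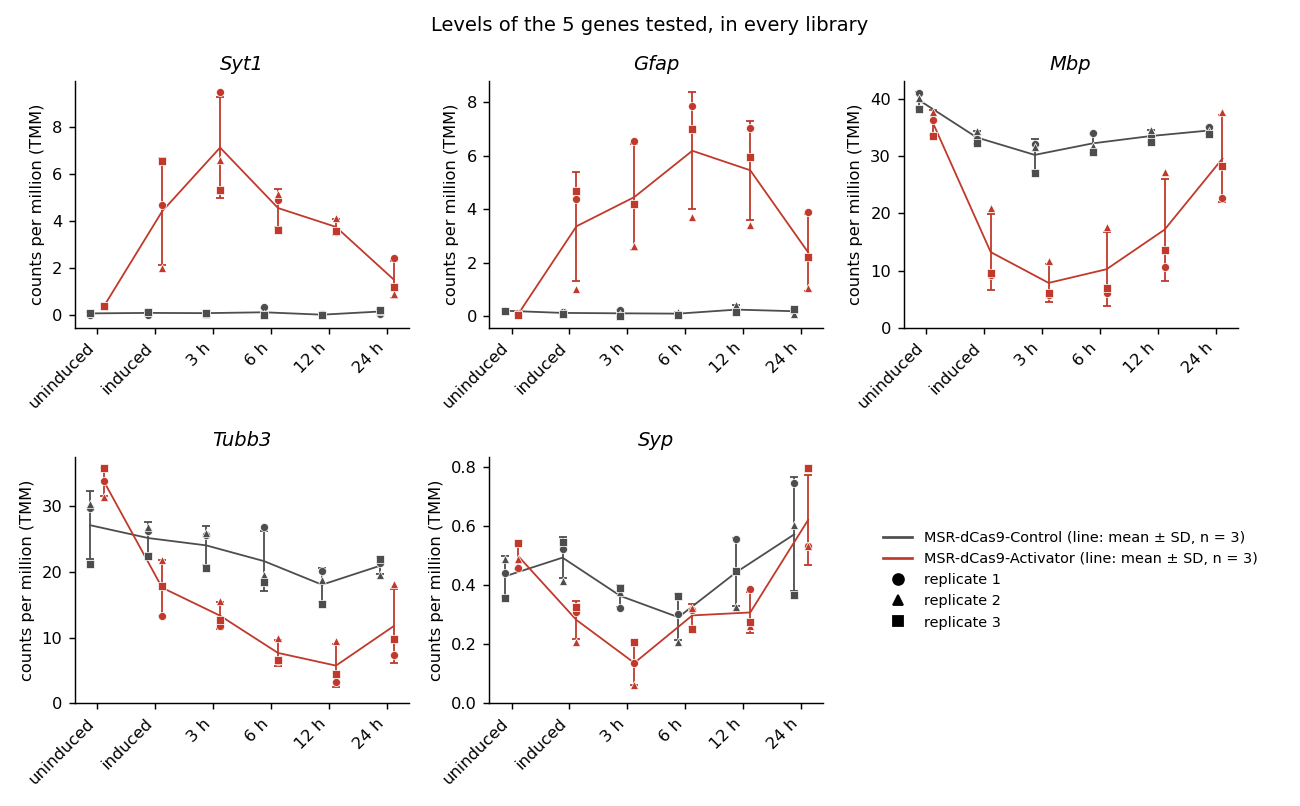
TMM-scaled CPM of the 5 tested genes (vertical axes, linear, each panel with its own scale) by time point (horizontal axis). Symbols are libraries by replicate, lines and bars the mean ± SD of 3 libraries. In MSR-dCas9-Activator cells Syt1, already higher before induction (0.410 against 0.0861), and Gfap rise on induction, Mbp is lowest at 3 h (7.83) and Tubb3 at 12 h (5.76), and Syp is lowest at 3 h (0.137).

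Mbp, in contrast, fell in MSR-dCas9-Activator cells and came back. Replicates 1 to 3 held 36.4, 37.7 and 33.5 CPM before induction, 9.17, 20.9 and 9.59 on induction, and 5.64, 11.7 and 6.13 at 3 h. The 6 h libraries held 6.07, 17.6 and 6.99 CPM, the 12 h libraries 10.5, 27.2 and 13.6, and the 24 h libraries 22.7, 37.7 and 28.3. MSR-dCas9-Control libraries stayed between 27.0 and 41.0 CPM. The lines did not overlap from induction to 12 h, and at 24 h they did. Replicate 2 was the highest MSR-dCas9-Activator library at all 5 times from induction on.

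The difference in Mbp was -1.41 ± 0.27 (SE) on the log2 scale on induction (edgeR adjusted p = 7.55e-05), -2.01 ± 0.27 at 3 h (adjusted p = 5.38e-07) and -1.76 ± 0.27 at 6 h (adjusted p = 3.28e-06). At 12 h it was -1.05 ± 0.26 (adjusted p = 0.000957), just beyond the limit on the fold change, and 10 of 18 other settings left it inside that limit, the values running from -1.63 to -0.73. At 24 h it was -0.26 ± 0.26 (adjusted p = 0.379). Within MSR-dCas9-Activator cells Mbp fell by 1.52 ± 0.27 on induction (adjusted p = 3.37e-05) and rose by 1.21 ± 0.26 from the induced state to 24 h (adjusted p = 0.000508).

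Tubb3, the tubulin of young neurons, was well expressed in these fibroblasts and fell in MSR-dCas9-Activator cells. Replicates 1 to 3 held 33.9, 31.5 and 35.8 CPM before induction, 13.3, 21.8 and 17.8 on induction, and 11.7, 15.6 and 12.7 at 3 h. The later values were 6.52, 9.95 and 6.59 CPM after 6 h, 3.24, 9.49 and 4.53 after 12 h, and 7.41, 18.2 and 9.78 after 24 h, with replicate 2 the highest at all 5 times from induction on. MSR-dCas9-Control libraries ran from 15.2 to 30.4 CPM, with means of 27.1 before induction and 18.1 at 12 h. The lines did not overlap at any time from induction on.

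The difference in Tubb3 was -0.53 ± 0.24 (SE) on the log2 scale on induction, which did not pass the test (edgeR adjusted p = 0.0669). At 3 h it was -0.86 ± 0.25 (adjusted p = 0.00336), past the test but within a 2-fold change. It was called at 6 h, with -1.52 ± 0.25 (adjusted p = 8.79e-06), and at 12 h, with -1.69 ± 0.26 (adjusted p = 2.28e-06). At 24 h it was -0.89 ± 0.25 (adjusted p = 0.00307), again within 2-fold. Leaving out the 24 h MSR-dCas9-Activator library of replicate 2 took this last value to -1.22, beyond the limit, and leaving out that of replicate 1 to -0.55 (adjusted p = 0.113). Within MSR-dCas9-Activator cells Tubb3 changed by -0.97 ± 0.24 on induction (edgeR adjusted p = 0.00153). From the induced state to 24 h it changed by -0.61 ± 0.25 (adjusted p = 0.0421). Both changes were within 2-fold.

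Syp, the vesicle membrane protein, was counted at 3 to 36 reads per library. At 3 h the MSR-dCas9-Activator libraries held 7, 3 and 8 counts and the MSR-dCas9-Control libraries 15, 12 and 16, which do not overlap. That difference, -1.43 ± 0.37 (SE) on the log2 scale, was called (edgeR adjusted p = 0.00108), and was -0.86 with an adjusted p of 0.112 without replicate 2. On induction the difference was -0.78 ± 0.31 (adjusted p = 0.0336), within 2-fold. At 24 h the lines overlapped, with 22, 24 and 32 counts against 36, 18 and 17. At 6, 12 and 24 h Syp did not pass the test.

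Of the 5 tested genes, edgeR called 2 as higher and 1 as lower in induced MSR-dCas9-Activator cells, where 34.3% of all tested genes were called, 22.1% as higher and 12.2% as lower. At 3 h 2 were higher and 2 lower (45.7% of all genes called, 27.1% higher and 18.6% lower), as they were at 6 h (48.2%, 28.6% and 19.6%) and at 12 h (50.2%, 31.3% and 18.9%). At 24 h 2 were higher and 0 lower (35.2%, 27.9% and 7.3%). Within MSR-dCas9-Activator cells 3 were called on induction (34.4% of all genes) and 3 between the induced state and 24 h (24%). That last count was 0 without replicate 3 and 1 with only the compared libraries in the fit. The change since the uninduced state differed between the lines for 3 genes on induction (19.7% of all genes) and for 2 at 24 h (16.8%). Syt1 is 1 of the genes counted as higher between the lines, and its place among the tested genes rests on the MSR-dCas9-Activator libraries. Counts out of 5 this near the background say nothing particular to these genes.

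The call rule of the study also asks for a mean normalised count above 100, which Syt1, Gfap and Syp do not reach. Under it 1 gene was called on induction (8.48% of all genes) and 1 at 3 h (12.8%), both times Mbp, then 2 at 6 h (13.9%), 2 at 12 h (15.2%) and 0 at 24 h (7.46%). The scaling of the libraries shifts all genes together. With 13 mitochondrially encoded mRNAs as the reference, 41.4% of the calls at 3 h were higher in place of 59.3%, and Syt1 and Gfap stayed higher, and Mbp and Tubb3 lower, at every time from induction on.

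**Figure D2:**
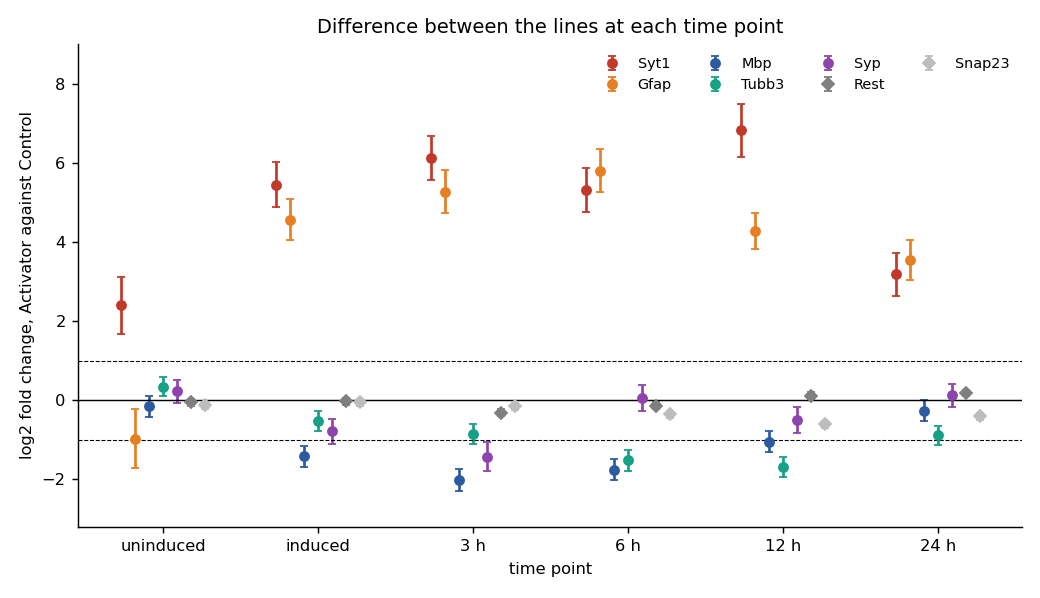
Difference between the lines on the log2 scale (vertical axis, MSR-dCas9-Activator less MSR-dCas9-Control, edgeR fit, bars ± SE) by time point (horizontal axis) for the 5 tested genes, Rest and Snap23. Dashed lines mark a 2-fold change. Syt1 lies above it at all times, Gfap from induction on, Mbp below it from induction to 12 h, and Rest and Snap23 stay within it.

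Snap25 had almost no counts, and nearly all came from MSR-dCas9-Activator cells. The 18 MSR-dCas9-Control libraries held 1 count in all, at 3 h in replicate 2, and the uninduced MSR-dCas9-Activator libraries held 0. MSR-dCas9-Activator libraries held 7, 4 and 6 counts on induction, followed by 4, 6 and 2 in the 3 h group and 1, 2 and 1 in the 6 h group. The 12 h libraries held 3, 2 and 5 counts, those of 24 h 6, 1 and 1. The lines did not overlap at any of these 5 times. The observed Snap25 level was 5.10-fold a floor of 3 counts over the 3 MSR-dCas9-Control libraries on induction. After 6, 12 and 24 h it was 1.29-fold, 3.75-fold and 2.63-fold that floor. At 3 h, where MSR-dCas9-Control held 1 count, the ratio was 10.5 with a 95% counting interval from 1.55 to 449. The interval covers counting error only, and the floor allows for none in the MSR-dCas9-Activator counts. In the fit without a filter, over 48106 genes, edgeR called Snap25 on induction (adjusted p = 0.00371) and at 3, 12 and 24 h (adjusted p = 0.0482, 0.00581 and 0.0214). It was not called at 6 h (adjusted p = 0.0896). Calls were common in that fit, with 10449 genes called between the lines on induction. After 3, 6, 12 and 24 h the numbers of called genes were 14891, 16154, 17925 and 12044. The calls alone therefore do not set Snap25 apart.

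Snap23, the widely expressed relative of Snap25, was abundant in all libraries, with 27.9 to 48.8 CPM. It was lower in MSR-dCas9-Activator cells by -0.36 on the log2 scale at 6 h (edgeR adjusted p = 0.000739), -0.61 at 12 h (adjusted p = 7.09e-07) and -0.41 at 24 h (adjusted p = 0.000231), always within 2-fold.

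Stmn2, Nefl, Nefm and Gap43 stayed at or near 0 in both lines. Stmn2 had at most 1 count in any library, with 6 in all in MSR-dCas9-Activator and 2 in MSR-dCas9-Control cells. The neurofilament chains had 0 counts in the 18 MSR-dCas9-Control libraries and 6 (Nefl) and 9 (Nefm) in the 18 MSR-dCas9-Activator libraries. At 24 h Nefl had 1, 1 and 2 counts, 1.31-fold the floor of MSR-dCas9-Control, with the counting error of these counts left out. Gap43 had 25 counts in MSR-dCas9-Activator and 14 in MSR-dCas9-Control cells, overlapping at every time. At 6 h, for example, its ratio was 0.580 with a 95% counting interval from 0.0900 to 2.98. In the fit without a filter edgeR called none of these 4 genes at any time (adjusted p from 0.145 to 1), and at so few counts a change within such intervals would not have been detectable.

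**Figure D3:**
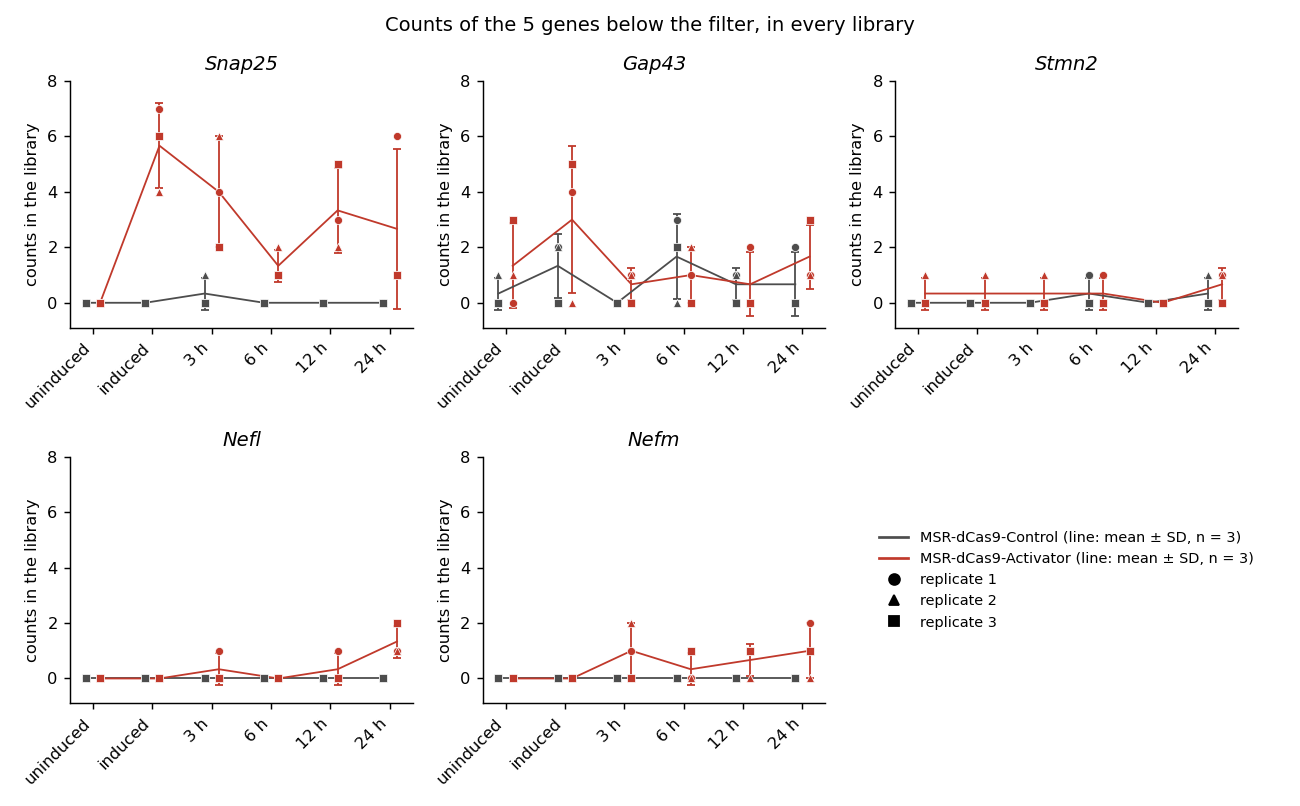
Raw counts per library (vertical axis) of the 5 genes below the filter by time point (horizontal axis). Symbols are libraries by replicate, lines and bars the mean ± SD of 3 libraries. Snap25 has from 1 to 7 counts in each MSR-dCas9-Activator library from induction on, and the other 4 genes have at most 5 in any library.

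Counts of annotated genes in and beside Syt1 were higher as well. Inside Syt1, Gm47472 on the opposite strand had 0 to 2 counts in MSR-dCas9-Control and 99 to 170 in MSR-dCas9-Activator libraries at 3 h. On the strand of Syt1, Gm5136 had 0 against 27 to 49 counts and Gm47477 0 against 10 to 24. These genes inside Syt1 share no exon with it, and the strand setting of the counting was not given. In total RNA, transcripts of their own and unspliced Syt1 RNA therefore cannot be told apart. Gm47466, a processed pseudogene 14.7 kb downstream of Syt1, had 0 against 14 to 37. Over all 18 MSR-dCas9-Control libraries they held 12, 1, 8 and 0 counts, so they were measured almost only in MSR-dCas9-Activator cells and no test is given for them. The nearest tested gene upstream, Nav3 at 670 kb, moved the other way, from 20.2 ± 3.86 to 7.72 ± 1.05 CPM (SD, n = 3), a difference of -1.37 on the log2 scale (edgeR adjusted p = 5.6e-08). Nav3 was also lower after 6 and 12 h (-1.81 and -1.47), but higher before induction (0.87, adjusted p = 0.00384) and after 24 h (0.61, adjusted p = 0.00233).

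Fam187a, 0.605 kb downstream of Gfap on the other strand, had 0 to 1 counts in MSR-dCas9-Control and 22 to 62 in MSR-dCas9-Activator libraries at 3 h. Over all 18 libraries of each line it held 10 counts in MSR-dCas9-Control and 376 in MSR-dCas9-Activator. It thus entered as a tested neighbour through the line where it is high, and no test is given for it. Gm26668, a long noncoding RNA whose span covers Gfap on the other strand without exon overlap, differed by 0.18 on the log2 scale (edgeR adjusted p = 0.17). Kif18b, 4.62 kb upstream, differed by -0.55 (adjusted p = 1.26e-06).

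Around the genes that fell, the neighbours did not all follow. Mc1r, 0.68 kb upstream of Tubb3, had 21 to 40 counts in MSR-dCas9-Activator against 5 to 6 in MSR-dCas9-Control libraries at 3 h, while Def8, 1.51 kb downstream, and Gm20388, which spans the locus, differed by 0.08 and 0.16 on the log2 scale. Rpl21-ps8, a pseudogene inside Mbp on the other strand, was lower by -1.22 (edgeR adjusted p = 0.0035), whereas the flanking Zfp236 and Gm17383 differed by -0.34 and -0.06. With the strand setting not given, Rpl21-ps8 counts and unspliced Mbp RNA cannot be told apart either. Cacna1f, 3.28 kb upstream of Syp, had 6 to 15 against 1 to 2 counts and Prickle3 on the other side differed by 0.09. Beside the neurofilament genes, Adamdec1 had 0 counts in all MSR-dCas9-Control libraries and 9 to 21 in MSR-dCas9-Activator libraries at 3 h, and Dock5 differed by 0.01. Adamdec1 thus passed the filter only through the MSR-dCas9-Activator libraries, where it is high. Adamdec1 already stood at 0.316 CPM in uninduced MSR-dCas9-Activator cells, near its 0.338 CPM of 3 h. Beside Snap25, Mkks, 91.4 kb downstream, was lower by -1.04 (edgeR adjusted p = 9.15e-08) and Plcb4 differed by -0.25. The nearest tested genes of Stmn2, Hey1 and Gm5841, differed by -0.69 and 0.43, and Gm49739 beside Gap43 by -0.18.

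**Figure D4:**
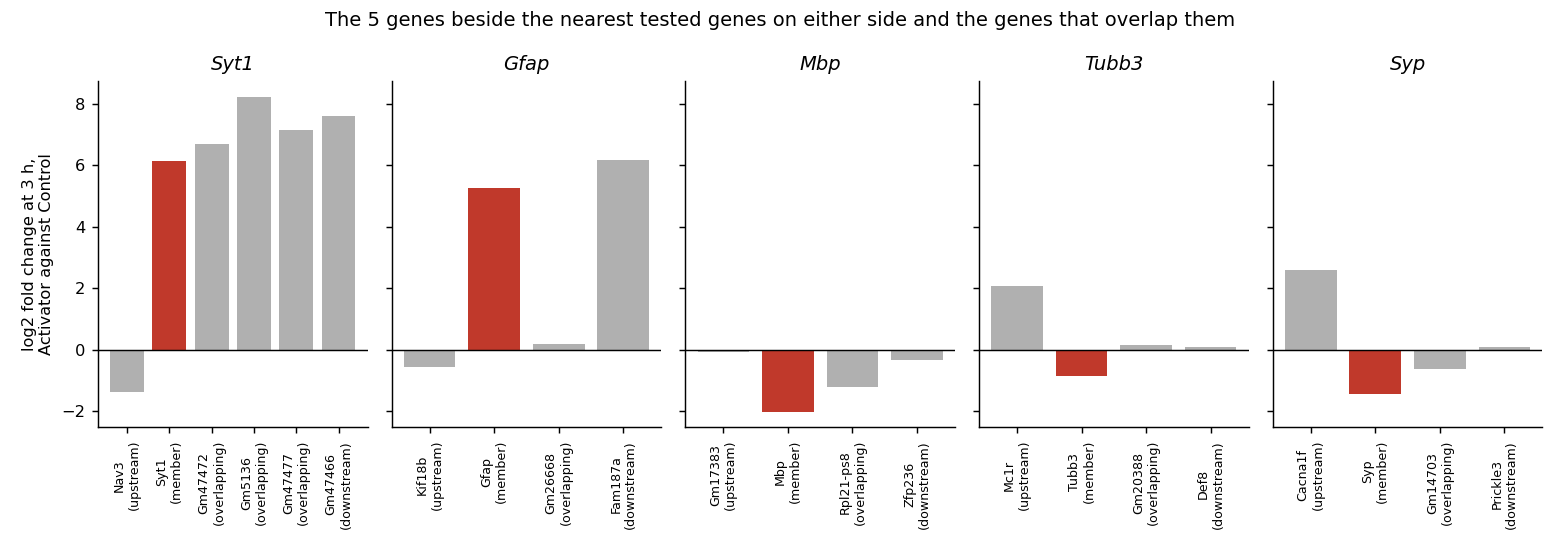
Fitted difference between the lines at 3 h on the log2 scale (vertical axis) for the 5 tested genes (red) and for the nearest tested genes on either side and those that overlap them (grey). Bars carry no error, and those of Gm5136, Gm47477 and Gm47466 rest on 0 counts in MSR-dCas9-Control, so their height depends on the prior count of the fit. The 4 tested genes within or just downstream of Syt1 are higher with it, and Nav3 is lower.

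Over the 36 libraries, the genes most alike to Syt1 in log2 CPM were Casq1, 4932415D10Rik and Pdzrn4 (Pearson r = 0.972, 0.967 and 0.966), and those most alike to Gfap were Tnnc2, Rasd2 and Nat8l (0.977, 0.974 and 0.973). For Mbp they were Snx33, Tet3 and Vcpip1 (0.989, 0.987 and 0.987), and for Tubb3 H6pd, Lrp6 and Smim10l1 (0.972, 0.968 and 0.967). The closest to Syp were 1700018A04Rik, its antisense neighbour Gm14703 and Gm25540 (0.762, 0.760 and 0.739). Syt1 and Gfap correlated at 0.893, Mbp with Gfap at -0.824 and with Syt1 at -0.817, and Mbp with Tubb3 at 0.670. The libraries form 12 groups and share the contrast between the lines, so these values are descriptions. Casq1 (a calcium-binding protein) and Tnnc2 (a troponin) are known as genes of skeletal muscle.

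The wider neuronal programme was read from hand-written lists, in which 13 of 234 genes stand on more than 1 list. Many listed genes are near 0 in MSR-dCas9-Control cells and pass the filter only through the MSR-dCas9-Activator libraries, where they are high, which fixes their direction. Counts are therefore led by the genes that the filter also kept on the MSR-dCas9-Control libraries alone, a choice made after seeing the data. Of all genes kept in that way, edgeR called 10.8% as higher and 23.9% as lower in the 3 h libraries. At 24 h these shares were 10.7 and 9.42%.

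At 24 h 2 of 20 such genes of synaptic vesicle release were higher and 0 lower, 1 of 6 neuronal transcription factors higher and 0 lower, and 3 of 11 neuronal RNA-binding proteins higher and 0 lower. Axon growth genes (6 higher and 2 lower of 12), neuronal cytoskeleton genes (6 and 4 of 20), myelin and oligodendrocyte genes (2 and 3 of 8) and astrocyte genes (4 and 2 of 9) moved in both directions. After 3 h the synaptic vesicle list had 2 such genes higher and 2 lower, with 2 and 1 for transcription factors, 2 and 2 for RNA-binding proteins and 4 and 1 for axon growth. The cytoskeleton list had 6 higher and 1 lower at 3 h, the myelin list 0 and 2, and the astrocyte list 3 and 1.

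Over all tested genes of a list the counts were larger. At 24 h 12 of 30 synaptic vesicle genes, 9 of 15 transcription factors and 5 of 13 RNA-binding proteins were called higher, where 27.9% of all tested genes were. The medians of all tested synaptic vesicle, transcription factor and RNA-binding genes were 0.36, 3.76 and 0.29 on the log2 scale, against 0.01 over all genes, and rest in part on folds set by the prior count. With mitochondrial scaling the 3 h medians of the synaptic vesicle, cytoskeleton, astrocyte and RNA-binding lists turned from 0.50, 0.34, 0.35 and 0.14 to -0.11, -0.26, -0.26 and -0.46.

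Among genes of these lists above 100 normalised counts, L1cam, an adhesion protein of axons, lay between 0.291 and 0.369 CPM in MSR-dCas9-Control and between 14.9 and 24.9 CPM in MSR-dCas9-Activator libraries at 24 h (6.03 ± 0.36, SE, on the log2 scale, edgeR adjusted p = 3.05e-13). Kif5a, a kinesin motor of neurons, lay between 0.789 and 1.40 CPM in the former and between 8.55 and 21.4 in the latter (3.74 ± 0.25, adjusted p = 8.94e-13). L1cam and Kif5a held 140 and 988 counts over the 18 MSR-dCas9-Control libraries, against 14587 and 6802 over the MSR-dCas9-Activator libraries. They reached the mean of 100 only through the MSR-dCas9-Activator line, where they are high. Srrm4, the splicing factor of neuronal microexons, stood at 20.3 to 31.8 CPM against 8.89 to 9.57 in MSR-dCas9-Control (1.62 ± 0.19, adjusted p = 4.41e-08). Sox9, a transcription factor of glia and cartilage, stood at 20.5 to 21.7 CPM against 6.92 to 9.43 (1.49, adjusted p = 0.00162). These 4 were named as the called gene with the largest rise of their list at 24 h. Their direction, and in part the lack of overlap between the lines, therefore follow from that choice.

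Other genes of the lists, each named as the called gene with the largest fall of its list, were lower at 24 h. Marcks, an actin-binding protein of axon growth, stood at 80.3 to 329.5 CPM in MSR-dCas9-Activator and 473.1 to 590.5 in MSR-dCas9-Control libraries (-1.51 ± 0.28, SE, on the log2 scale, edgeR adjusted p = 5.33e-05). Map1a, a microtubule-associated protein, was lower by -1.40 (adjusted p = 1.38e-05), the myelin protein gene Pmp22 by -1.48 (adjusted p = 0.000276) and the glutamate transporter gene Slc1a3 by -1.45 (adjusted p = 1.26e-07). No gene of the synaptic vesicle or transcription factor lists with a mean above 100 was called at 24 h.

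**Figure D5:**
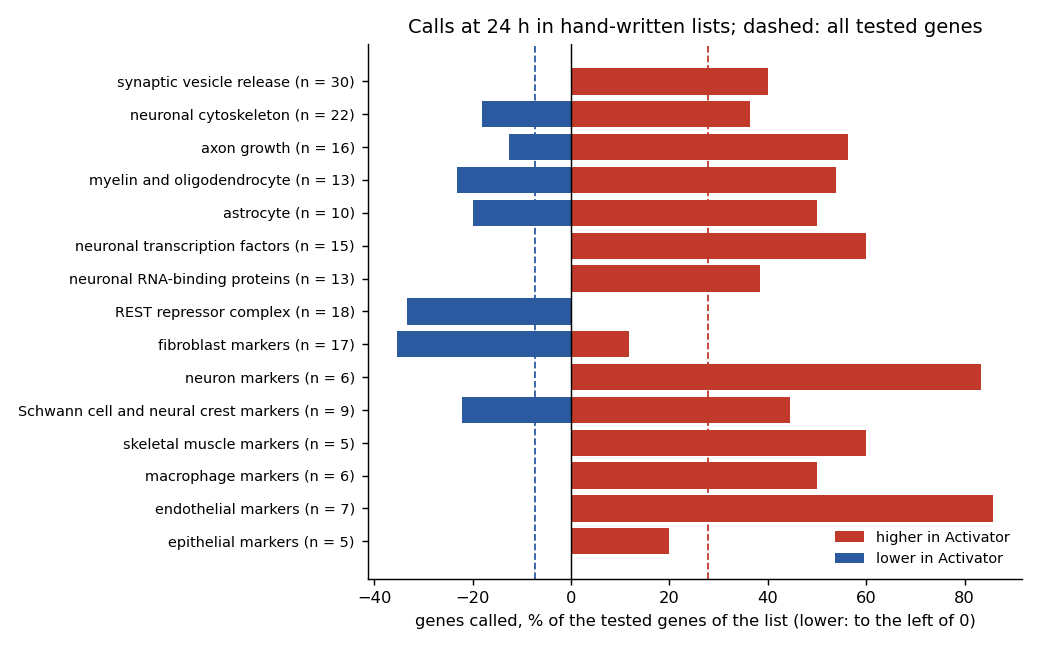
Share of the tested genes of each hand-written list called at 24 h, as a percent (horizontal axis), higher in MSR-dCas9-Activator to the right of 0 and lower to the left, with the number tested beside each list (vertical axis). Dashed lines mark the shares over all tested genes, 27.9% higher and 7.3% lower. The REST complex has no gene called higher, and the endothelial and neuron marker lists reach furthest to the right, with 4 of 7 and 5 of 6 of their tested genes kept only through the MSR-dCas9-Activator libraries.

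Rest itself stayed within 2-fold. Its level was 154 to 206 CPM in MSR-dCas9-Control and 146 to 206 in MSR-dCas9-Activator libraries, and its difference between the lines ran from -0.32 ± 0.08 (SE) on the log2 scale at 3 h (edgeR adjusted p = 0.000996) to 0.18 at 24 h (adjusted p = 0.0469). Of the 18 genes of the REST complex 0 were called higher, while 4 were lower on induction, 4 after 3 h, 6 after 6 h, 8 after 12 h and 6 after 24 h. These are 22.2, 22.2, 33.3, 44.4 and 33.3% of the list. The filter kept all 18 on the MSR-dCas9-Control libraries alone. Of all genes kept in that way 15.7, 23.9, 25.2, 24.3 and 9.42% were lower at these times. Of all tested genes 12.2, 18.6, 19.6, 18.9 and 7.3% were lower. The 6 of 24 h were Ctdsp2 (-1.50 on the log2 scale) and Ctdsp1 (-1.01), phosphatases that act on RNA polymerase II and REST, the corepressors Sin3a (-1.23) and Rcor2 (-1.12), the histone methyltransferase Ehmt1 (-1.09) and the histone reader Phf21a (-1.13). The count depended on the scaling: at 24 h it was 2 with DESeq2 size factors, 5 without TMM and 7 on mitochondrially encoded mRNAs, with 0 higher under each.

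Markers of other cell types moved at the same times. Among markers that the filter also kept on MSR-dCas9-Control libraries alone, edgeR called 3 of 3 endothelial, 1 of 1 neuron, 1 of 4 macrophage, 1 of 6 Schwann cell and neural crest, 1 of 3 skeletal muscle and 1 of 5 epithelial markers higher in MSR-dCas9-Activator cells at 3 h, and 2 Schwann cell and neural crest and 1 epithelial marker lower. Of all genes kept in that way 10.8% were higher and 23.9% lower. The other tested markers passed the filter only through the MSR-dCas9-Activator libraries. Endothelial markers summed to 34.7 to 48.0 CPM there and to 1.14 to 1.69 in the 3 h MSR-dCas9-Control libraries, and neuron markers to 12.7 to 15.2 against 2.37 to 3.06, with Th at 0 in both. These sums rested on few genes. Over the 18 MSR-dCas9-Activator libraries the highest endothelial means were Pecam1 (18.9 CPM), Tek (9.50), Esam (2.66) and Vwf (2.39), with Kdr next at 0.267. Among neuron markers Syn1 (6.35) and Chat (3.63) were highest, with Slc17a6 next at 0.847. Fibroblast markers summed to 12168 to 22243 CPM in MSR-dCas9-Activator and 26159 to 29008 in MSR-dCas9-Control libraries at 24 h, with 2 of 17 called higher and 6 lower. Of all genes kept on the MSR-dCas9-Control libraries alone, as these 17 were, 10.7% were higher and 9.42% lower at 24 h. The part of other cells in the levels of Syt1 and Gfap was not tested.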

How the data were processed

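RNA-seq gene counts were analysed in 36 libraries, 3 for each time point of the MSR-dCas9-Control line and of the MSR-dCas9-Activator line. The MSR-dCas9-Repressor line was not analysed here. The authors prepared stranded total RNA libraries, trimmed the reads with cutadapt, aligned them to GRCm38 with STAR under the settings that TEtranscripts recommends and deposited whole-number counts from TEtranscripts with no normalisation. The annotation release, the counting mode for multi-mapping reads and the strand setting are not given in the sources used here. The table holds 54842 genes, of which 54495 match GENCODE M21, 1561 repeat families and 1 unnamed entry (0.00210 to 0.00452% of counts), which was left out.

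After filterByExpr, differences were tested with edgeR 4.0.16 in R 4.3.3 (TMM on genes, glmQLFit and glmQLFTest with robust fitting) in a single fit of group and replicate number, the latter as in the study's design. P-values were adjusted by Benjamini-Hochberg over 28536 genes. Called genes had an adjusted p under 0.05 and a log2 fold change beyond 1. The SE of a log2 difference is its absolute value over the root of the F statistic, and errors of CPM are SD. RPKM used merged exon lengths of GENCODE M21. The steps were tested on simulated data.

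Named were the 10 genes, the nearest tested genes and the tested overlapping genes, the 3 genes most correlated with each tested gene (log2 CPM, prior count 2), Rest, Snap23, and, for each list of neuronal, glial and REST genes, the called gene with the largest rise and fall at 24 h with a mean above 100. The other called REST complex genes were named after their values were seen. The 10 genes and the lists were chosen with earlier results of these data known. Lists are given by counts and medians without a set test. Alternatives covered DESeq2 1.42.0, size factors, no TMM, 13 mitochondrially encoded mRNAs, the filter, the call rule, the block, the libraries in the fit, and each replicate or library left out. No replicates were duplicates (lowest chi-square per degree of freedom between replicates 16.1).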

Additional observations from a re-analysis of the deposited data

Results flagged for a closer look

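The change since the uninduced state differed between the lines for 5 results, by an interaction term in edgeR's quasi-likelihood fit with Benjamini-Hochberg adjustment over all genes. On induction, Gfap rose by 5.53 ± 0.94 (SE) more on the log2 scale in the MSR-dCas9-Activator than in the MSR-dCas9-Control line (adjusted p = 7.86e-05), and Syt1 by 3.05 ± 1.14 more (adjusted p = 0.0405). Mbp changed by -1.26 ± 0.37 relative to the MSR-dCas9-Control line (adjusted p = 0.0112). Of all tested genes 19.7% were called in this comparison. For Tubb3 and Syp the difference did not pass the test (adjusted p = 0.0554 and 0.0746).

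From the uninduced state to 24 h, Gfap rose by 4.52 ± 0.91 more in the MSR-dCas9-Activator line (adjusted p = 0.000394), and Tubb3 changed by -1.23 ± 0.35 relative to the MSR-dCas9-Control line (adjusted p = 0.00844), where 16.8% of all genes were called. For Syt1, whose uninduced MSR-dCas9-Activator libraries already held more counts than the MSR-dCas9-Control ones, the difference was 0.78 ± 1.06 (adjusted p = 0.626). Both interactions rest on the same uninduced libraries.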

How the results depend on the processing

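Of the fitted differences under other settings, 498 kept their direction and their side of the limits, 11 passed them only under the other setting, 22 no longer did and 8 changed sign, each of them for Syp. Syp at 6 h (0.06 on the log2 scale) was -0.0834 without TMM, -0.64 with mitochondrial scaling, -0.07 without replicate 2, and -0.10 and -0.06 without the replicate 2 library of either line (range with libraries left out -0.10 to 0.34). Syp at 24 h (0.13) was -0.0457 with mitochondrial scaling, and -0.33 and -0.20 without replicate 3 or its MSR-dCas9-Control library (-0.33 to 0.47). Called genes among the 5 in uninduced cells were 1 with DESeq2 in place of 0. With a mean over 100 as well they were 1 in induced cells and at 3 h, 2 at 6 and 12 h, 0 at 24 h, and 1 in each interaction and each comparison within the MSR-dCas9-Activator line. In induced against uninduced MSR-dCas9-Activator cells they were 5 with the adjusted p alone or with mitochondrial scaling in place of 3, and at 24 h against induced 1 with only the compared libraries. With libraries left out they ran from 1 to 4 in the interaction on induction, from 1 to 2 in that at 24 h and from 0 to 3 at 24 h against induced. The causes were not tested.

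Same-numbered libraries of the lines correlated at -0.0067 to 0.222 (10 of 18 over 0.1), so the numbers do not clearly pair them. Without the replicate block the counts were 3, 4, 4, 3 and 2 from induction to 24 h, against 3, 4, 4, 4 and 2 with it, the loss being Mbp at 12 h (-0.96), and 2 in place of 3 in the interaction on induction. Mitochondrial scaling moved the median of all genes at 3 h to -0.44 from 0.16, and the share of calls that were higher to 49.0, 41.4, 38.5, 43.3 and 68.1% from 64.4, 59.3, 59.4, 62.4 and 79.3% (induction to 24 h). The directions of Syt1, Gfap, Mbp and Tubb3 held under every scaling from induction on. Syt1 and Gfap at 0 to 21 counts per MSR-dCas9-Control library, Syp and the 5 genes below the filter are limited by depth.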
